A study of Mus musculus with 12 samples.

Results

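The genes described here are the mouse opioid peptide precursors and opioid receptors, in the hypothalamus of mice carrying a mutation of Wfs1. They were chosen by symbol from the deposited count table, with earlier results of these data known. They are the precursors Penk, Pdyn and Pnoc and the receptors Oprk1, Oprm1, Oprd1 and Oprl1. These are 7 of the 24020 genes in the table, and each had 1 line in it. The endorphin precursor Pomc is treated with the other genes of the system further down.

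The series holds 12 hypothalamus libraries from the mouse line Wfs1tm1Koks, with 4 individuals for each of the genotypes wild-type, heterozygous and homozygous by the design text. Wfs1 codes for wolframin, which sits in the membrane of the endoplasmic reticulum. Strain, mutated gene and genotype are given in the labels, whereas the labels state no age, sex or treatment. The mutation was carried in the germ line, so no tissue-restricted driver applies. Total RNA was extracted from dissected, snap-frozen hypothalami and 50 ng was amplified to cDNA before SOLiD sequencing with reads of 75 bases forward and 35 bases reverse. One homozygous column carries the number 5, which no homozygous label has. It was used as a homozygous library by its prefix and is called homozygous replicate 5. No column carries the number of the sample labelled as homozygous number 3. Whether the column numbered 5 holds that sample is not stated. The growth protocol speaks of 5 animals per genotype for the hypothalamus, against the 4 of the design text.

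Opioid precursors are cut at pairs of basic residues into short peptides inside secretory granules. Penk gives the enkephalins, which act mainly on the delta and mu receptors (Oprd1, Oprm1), Pdyn gives the dynorphins, which act mainly on the kappa receptor (Oprk1), and Pnoc gives nociceptin, which acts on its own receptor Oprl1. All 4 receptors couple to inhibitory G proteins. In the hypothalamus, dynorphin is made by vasopressin neurons, orexin neurons and the kisspeptin neurons of the arcuate nucleus, and enkephalin by several scattered populations.

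The precursors differ in the opioid cores they encode, and the coding sequences are shown because the changes described below had opposite signs in Penk and Pdyn. The sequences were read from the GENCODE M21 transcripts on mm10 (GRCm38), 5′ to 3′ on the minus strand. The lower-case letters code for the shared start of the core, and the capitals are the last codon shown, which is ATG for methionine, CTG or TTG for leucine and ACC for the threonine of nociceptin.
Penk Met-enkephalin core 1, chr4:4134334-4134348: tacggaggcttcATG
Penk Met-enkephalin core 3, chr4:4134226-4134240: tatggcggcttcATG
Penk Met-enkephalin core 6, chr4:4133848-4133862: tacgggggctttATG
Penk Leu-enkephalin core, chr4:4133941-4133955: tatgggggcttcCTG
Pdyn Leu-enkephalin core 1, chr2:129688238-129688252: tatggcggctttTTG
Pdyn Leu-enkephalin core 2, chr2:129688130-129688144: tatgggggcttcCTG
Pdyn Leu-enkephalin core 3, chr2:129688073-129688087: tatggtggtttcCTG
Pnoc nociceptin start, chr14:65404878-65404892: tttgggggcttcACC
Penk held 6 Met-enkephalin cores and 1 Leu-enkephalin core, all in exon 2 of 2. Pdyn held 3 Leu-enkephalin cores and 0 Met-enkephalin cores, in exon 4 of 4. Pnoc held neither core, and its nociceptin start lay in exon 3 of 4, with a phenylalanine codon in place of the first tyrosine codon. Each core was preceded by a pair of codons for basic residues, and the Leu-enkephalin core of Penk had the same letters as core 2 of Pdyn. The table counts whole genes, so a change in reads says nothing about single exons or single peptides.

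Totals ran from 979394 to 2330872 counts per library, and levels are given as CPM, which are counts relative to library size, scaled by the trimmed mean of M values (TMM). Wfs1 stood at 114, 138, 163 and 167 CPM in wild-type, at 84.2, 81.8, 103 and 89.9 CPM in heterozygous and at 20.1, 17.5, 14.8 and 15.8 CPM in homozygous libraries, with no overlap between genotypes. The ribosomal transcript Rn45s was higher in each wild-type library than in each mutant library, so leaving out single mutant libraries does not balance it. The part of this difference in the opioid results was not tested. Homozygous replicates 4 and 5 also stood apart. Their ribosomal transcript Rn45s was at 95.6 and 85.8 CPM, against 316 and 352 CPM in the other homozygous libraries, 352 to 788 CPM in the heterozygous and 958 to 1983 CPM in the wild-type. The slope of log2 expression on transcript GC content, per percentage point, was -0.0457 and -0.0507 in these libraries. It lay between -0.00294 and 0.0320 in the other 10. By genotype it was 0.00275 to 0.0320 in wild-type and -0.0507 to 0.00188 in homozygous libraries, without overlap. A fit with this slope as a covariate thus cannot fully separate genotype from base composition. A call lost there does not show which of them the difference followed. For homozygous against wild-type tissue, the calls of the opioid genes and of the lists of related genes are given with and without homozygous replicates 4 and 5. Marker results are given only with them. Summed markers of the hypothalamus ran from 1034 to 1461 CPM in wild-type, 1091 to 1708 CPM in heterozygous and 1046 to 1435 CPM in homozygous libraries. Most of these sums came from Pmch, the melanin-concentrating hormone precursor of the lateral hypothalamus. Its mean over all libraries was 986 CPM, against 50.4 CPM for Cartpt, the next highest, so the sums say little about the other markers. Pmch had at least 731 counts in every library, whereas the developmental factor Otp had at most 5 and was at 0 in each homozygous library.

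Proenkephalin was higher and prodynorphin lower in homozygous than in wild-type hypothalamus, and neither gene's libraries overlapped between these genotypes. The kappa receptor was also higher in homozygous tissue, with overlapping libraries. Of the 7 genes, 3 passed the test at an adjusted p under 0.05 (2 higher, 1 lower), where 25.4% of the 10737 tested genes did, 13.7% of them higher and 11.6% lower. Libraries did not overlap for 3 of the 7 (Penk, Pdyn and Pnoc), against 23.6% of tested genes. A call or a gap of this kind was thus common among all genes in this contrast. Tests were edgeR's quasi-likelihood tests with Benjamini-Hochberg adjustment over the tested genes, in 1 model over the 12 libraries. The hypothalamus was sequenced as bulk tissue, so fewer cells of a type and less RNA per cell cannot be told apart.

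**Figure D1:**
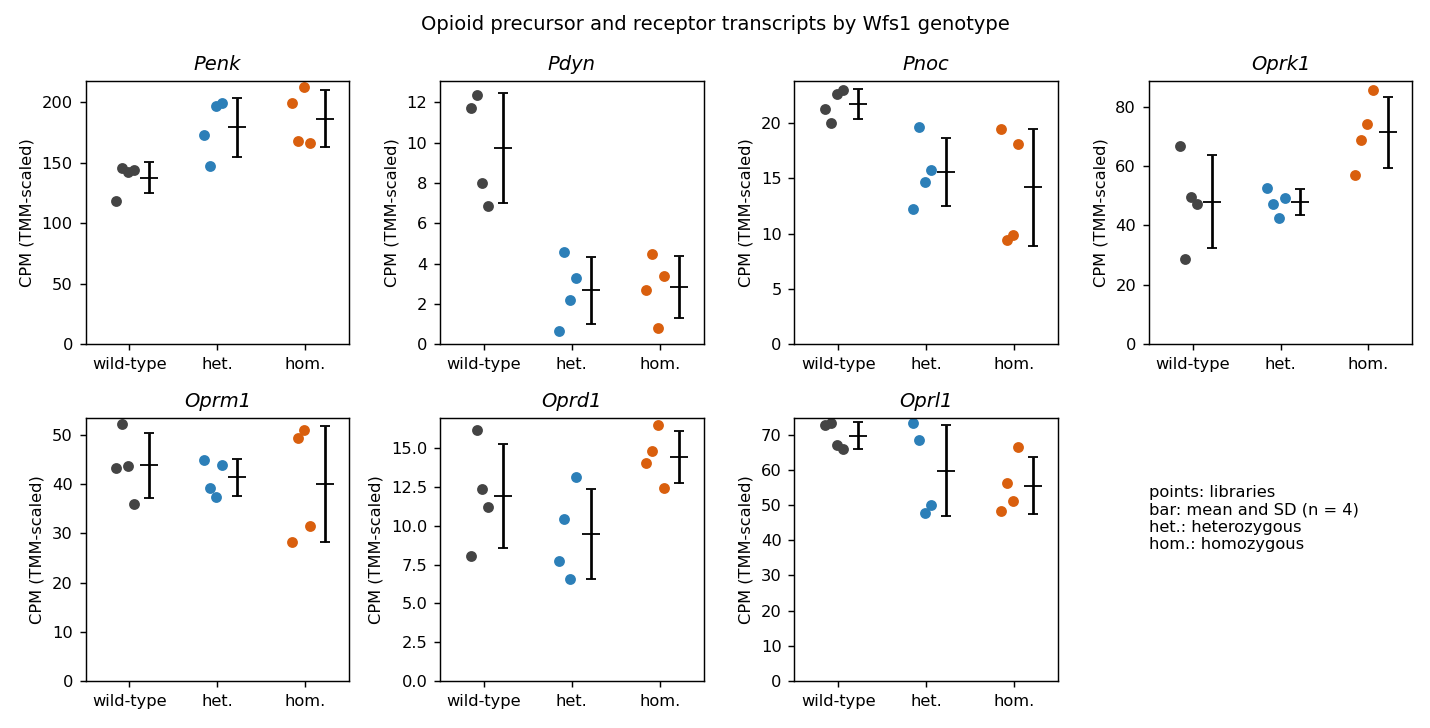
TMM-scaled CPM (vertical axes, starting at 0) of the 7 genes in each of the 12 libraries, by genotype; points are libraries, bars the mean and SD of 4 libraries. The wild-type libraries lie below the others for Penk and above the others for Pdyn and Pnoc, and the homozygous points for Oprk1 start within the wild-type range.

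Penk (chr4:4133531-4138819, minus strand) codes for proenkephalin. It was measured at 118, 146, 142 and 144 CPM in wild-type replicates 1, 2, 3 and 5, at 173, 147, 197 and 199 CPM in heterozygous replicates 1 to 4, and at 199, 167, 213 and 166 CPM in homozygous replicates 1, 2, 4 and 5. Each mutant library lay above each wild-type library, although heterozygous replicate 2 exceeded the highest wild-type library by little. Means were 137 ± 13.0, 179 ± 24.4 and 186 ± 23.3 CPM (SD, n = 4 each). The homozygous level was 1.36-fold the wild-type level, a log2 fold change of 0.44 with a standard error of 0.13 (adjusted p = 0.0193). The heterozygous level gave a log2 fold change of 0.38 with a standard error of 0.13, which did not pass the test (adjusted p = 0.195). Homozygous and heterozygous levels differed by 0.06 on the log2 scale, with a 95% interval from -0.19 to 0.32.

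The homozygous call for Penk ended without homozygous replicates 4 and 5 (log2 fold change 0.42, adjusted p = 0.0545), without wild-type replicate 1 (0.38, adjusted p = 0.0603), without homozygous replicate 4 (0.37, adjusted p = 0.0696) and with the GC slope as a covariate (0.38, adjusted p = 0.216). With a GC offset per library it was larger, at 0.64 (adjusted p = 0.000944). Penk shares 233 annotated exon bases with the transcript A830012C17Rik on the opposite strand, which has no line in the table, and the sources used here do not say whether reads were counted by strand.

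Pdyn (chr2:129686565-129699844, minus strand) codes for prodynorphin, and it was the least counted of the 7 genes. It had 16, 13, 11 and 11 counts in the wild-type libraries, or 11.7, 12.4, 8.02 and 6.84 CPM. It had 1, 11, 3 and 5 counts in the heterozygous libraries, or 0.643, 4.59, 2.20 and 3.28 CPM. It had 4, 10, 1 and 3 counts in the homozygous libraries, or 2.68, 4.49, 0.824 and 3.39 CPM. Each mutant library lay below each wild-type library once depth was taken into account, and the raw 11 and 10 counts of heterozygous and homozygous replicate 2 came from the 2 deepest libraries. Counting error was wide: the exact 95% Poisson interval was 0.0253 to 5.57 for 1 count and 9.15 to 26.0 for 16 counts. These intervals cover counting error only.

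The mean level of Pdyn was 9.74 ± 2.73 CPM in wild-type, 2.68 ± 1.67 CPM in heterozygous and 2.85 ± 1.54 CPM in homozygous tissue (SD, n = 4 each). The homozygous level was 3.09-fold lower than the wild-type level, a log2 fold change of -1.63 with a standard error of 0.46 (adjusted p = 0.0115). The heterozygous difference was of similar size, with a log2 fold change of -1.71, a standard error of 0.44 and an unadjusted p of 0.000791, but did not pass the test after adjustment (adjusted p = 0.0778). It did pass in 7 of the 23 alternatives that gave a value, among them the fit without heterozygous replicate 2 (log2 fold change -2.18, adjusted p = 0.0317) and the fit with no filter on low counts (-1.69, adjusted p = 0.0197). Homozygous and heterozygous levels differed by 0.08 on the log2 scale, with a 95% interval from -0.97 to 1.13, so a difference in either direction was not detectable at this depth. Both mutant genotypes were compared with the same wild-type libraries.

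The filter on low counts asked for at least 6.80 CPM in 4 libraries, and Pdyn passed it in the 4 wild-type libraries and in none of the mutant ones. It could thus enter the test only because its wild-type level was the higher one. Without the filter its homozygous change was -1.61 (adjusted p = 0.00642). Its homozygous call held in each of the 12 fits that left out 1 library, with log2 fold changes from -2.05 to -1.37. The call ended without homozygous replicates 4 and 5 (-1.34, adjusted p = 0.0818) and with the GC slope as a covariate (-1.21, adjusted p = 0.303).

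**Figure D2:**
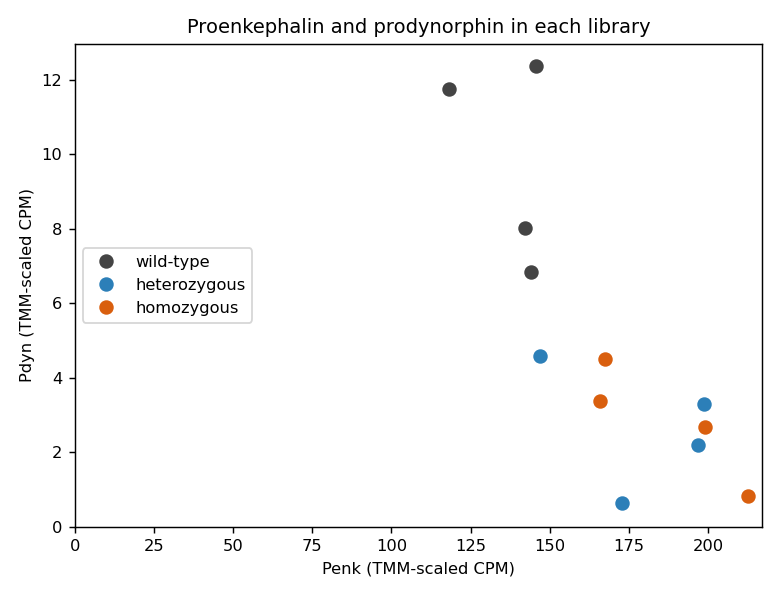
Penk (horizontal axis) against Pdyn (vertical axis), both in TMM-scaled CPM and both from 0, with 1 point per library, by genotype. Each wild-type library lies above 6 CPM of Pdyn and each mutant library below 5, and the heterozygous and homozygous points intermingle.

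The ratio of Penk to Pdyn counts, which does not depend on the scaling of a library, ran from 10.1 to 21.1 in wild-type libraries, with a median of 14.7. It ran from 32.0 to 269 in heterozygous libraries, with a median of 75.1, and from 37.3 to 258 in homozygous libraries, with a median of 61.6. The wild-type ratios lay below each mutant ratio, and the 2 highest ratios rest on 1 Pdyn count each. Per kilobase of exon, Penk made up 83.8% to 87.1% of the summed CPM of the 3 precursors in wild-type, 89.4% to 94.7% in heterozygous and 91.4% to 96.4% in homozygous libraries. The share of Pdyn was 2.34% to 4.72% in wild-type, 0.199% to 1.58% in heterozygous and 0.211% to 1.43% in homozygous libraries. These shares restate the levels above and are not separate evidence.

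Pnoc (chr14:65400673-65425472, minus strand) codes for pronociceptin. It was measured at 21.3, 19.98, 22.6 and 23.0 CPM in wild-type libraries, at 12.2, 19.6, 14.6 and 15.8 CPM in heterozygous libraries and at 19.4, 9.43, 9.89 and 18.1 CPM in homozygous replicates 1, 2, 4 and 5. The wild-type libraries were close together and above each mutant library, while the homozygous libraries split into a lower pair (replicates 2 and 4) and a pair just under the wild-type range. The homozygous log2 fold change was -0.66 with a standard error of 0.26 (adjusted p = 0.0683), and the heterozygous one was -0.46 with a standard error of 0.25 (adjusted p = 0.42), so neither passed the test. The homozygous difference passed without homozygous replicate 1 (-0.89, adjusted p = 0.0224) and with upper quartile scaling (-0.73, adjusted p = 0.0443).

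Oprk1 (chr1:5588466-5606131, plus strand) codes for the kappa receptor, at which dynorphins act. It was measured at 66.7, 28.5, 49.5 and 47.2 CPM in wild-type libraries, at 52.7, 47.1, 42.5 and 49.2 CPM in heterozygous libraries and at 57.0, 68.7, 74.1 and 85.8 CPM in homozygous libraries. The homozygous libraries lay above each heterozygous library, and wild-type replicate 1 reached into the homozygous range. Means were 48.0 ± 15.6, 47.9 ± 4.27 and 71.4 ± 12.0 CPM (SD, n = 4 each). The homozygous level was 1.46-fold the wild-type level, a log2 fold change of 0.54 with a standard error of 0.19 (adjusted p = 0.043). The heterozygous log2 fold change was -0.02 with a standard error of 0.20 (adjusted p = 0.979). Between homozygous and heterozygous tissue the log2 difference was 0.56 with a standard error of 0.19, an unadjusted p of 0.00733 and an adjusted p of 0.108, so it did not pass.

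The homozygous call for Oprk1 was the least stable of the 3, and its adjusted p was under 0.05 in 10 of 24 alternatives. It ended without homozygous replicates 4 and 5 (log2 fold change 0.38, adjusted p = 0.236), with a GC offset (0.24, adjusted p = 0.348), with the GC slope as a covariate (0.24, adjusted p = 0.646) and with upper quartile scaling (0.47, adjusted p = 0.0778). Leaving out wild-type replicate 2, 3 or 5, heterozygous replicate 4 or homozygous replicate 4 or 5 also ended it, with adjusted p from 0.0525 to 0.138. Its transcripts had the lowest GC content of the 7 genes, at 40.7%, against 47.9% to 54.9% in the other genes. The highest values were those of homozygous replicates 4 and 5, the 2 libraries of lowest Rn45s and GC slope.

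Oprm1 (chr10:6758506-7038198, plus strand), the mu receptor through which morphine acts, was measured at 43.3, 52.3, 43.7 and 36.1 CPM in wild-type libraries. It was at 45.0, 39.2, 37.4 and 44.0 CPM in heterozygous and at 28.2, 49.4, 51.1 and 31.6 CPM in homozygous libraries. The homozygous libraries formed a low and a high pair on either side of the wild-type mean, and the genotypes overlapped. The homozygous log2 fold change was -0.10 with a 95% interval from -0.49 to 0.29 (adjusted p = 0.758), and the heterozygous one was -0.07 with an interval from -0.45 to 0.31 (adjusted p = 0.909). Oprm1 shares 96 exon bases with Ipcef1 on the opposite strand, whose level was 24.8 ± 6.82 CPM in wild-type, 23.2 ± 5.10 CPM in heterozygous and 26.4 ± 7.80 CPM in homozygous tissue (SD, n = 4 each).

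Oprd1 (chr4:132110726-132144486, minus strand), the delta receptor for enkephalins, was measured at 8.07, 16.2, 12.4 and 11.2 CPM in wild-type libraries. It was at 7.71, 10.4, 6.59 and 13.1 CPM in heterozygous and at 14.1, 14.8, 16.5 and 12.4 CPM in homozygous libraries. The homozygous libraries lay close together in the upper part of the overall range and overlapped both other genotypes. The log2 difference was 0.30 against wild-type (standard error 0.28, adjusted p = 0.455) and 0.60 against heterozygous tissue (standard error 0.28, adjusted p = 0.229), and neither passed the test. Oprd1 was counted 63 to 85 times per genotype, and the 95% interval of the latter difference ran from 0.05 to 1.15.

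Oprl1 (chr2:181715016-181720985, plus strand), the nociceptin receptor, was measured at 72.6, 73.3, 67.0 and 65.9 CPM in wild-type libraries. It was at 73.3, 68.4, 47.6 and 49.9 CPM in heterozygous and at 48.3, 56.1, 51.1 and 66.6 CPM in homozygous libraries. The wild-type libraries were tightly grouped, and 1 homozygous and 2 heterozygous libraries reached their range. The homozygous log2 fold change was -0.34 with an approximate 95% interval from -0.67 to -0.01. It did not pass the edgeR test before or after adjustment (unadjusted p = 0.0562, adjusted p = 0.146). The heterozygous one was -0.21 with an interval from -0.53 to 0.11 (adjusted p = 0.604).

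**Figure D3:**
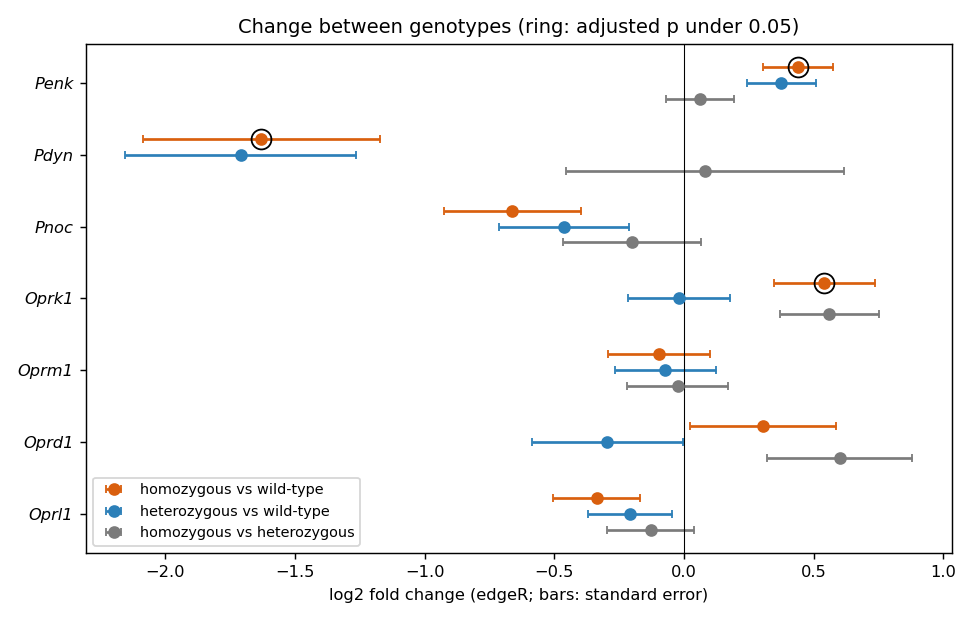
Log2 fold change of the 7 genes between genotypes, fitted with edgeR; bars are standard errors and rings mark an adjusted p under 0.05. Rings appear for Penk, Pdyn and Oprk1 in homozygous against wild-type tissue, and the 2 mutant genotypes have like values for Penk and Pdyn but not for Oprk1, where the difference between them did not pass the test.

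In heterozygous against wild-type tissue, 0 of the 7 genes passed the edgeR test, against 0.596% of tested genes, and Penk and Pdyn had an unadjusted p under 0.05. DESeq2 called 0 of the 7 as well, with no adjusted p for Pdyn, and limma called 1, Pdyn. Libraries of these genotypes did not overlap for 3 of the 7 (Penk, Pdyn and Pnoc), against 9.34% of tested genes. In homozygous against heterozygous tissue, edgeR, DESeq2 and limma each called 0 of the 7, against 2.2% of tested genes by edgeR, and Oprk1 and Oprd1 had an unadjusted p under 0.05. There, libraries did not overlap for 1 of the 7 (Oprk1), against 9.48% of tested genes. In a model with a constant step per mutant copy, 3 of the 7 passed, against 25.7% of tested genes. The step was 0.22 for Penk (adjusted p = 0.0225), -0.93 for Pdyn (adjusted p = 0.00889) and 0.28 for Oprk1 (adjusted p = 0.0429) on the log2 scale. Without that constraint, the estimated steps between neighbouring genotypes were 0.38, then 0.06 for Penk. They were -1.71, then 0.08 for Pdyn and -0.02, then 0.56 for Oprk1. Whether the steps of a gene differed from each other was not tested.

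**Figure D4:**
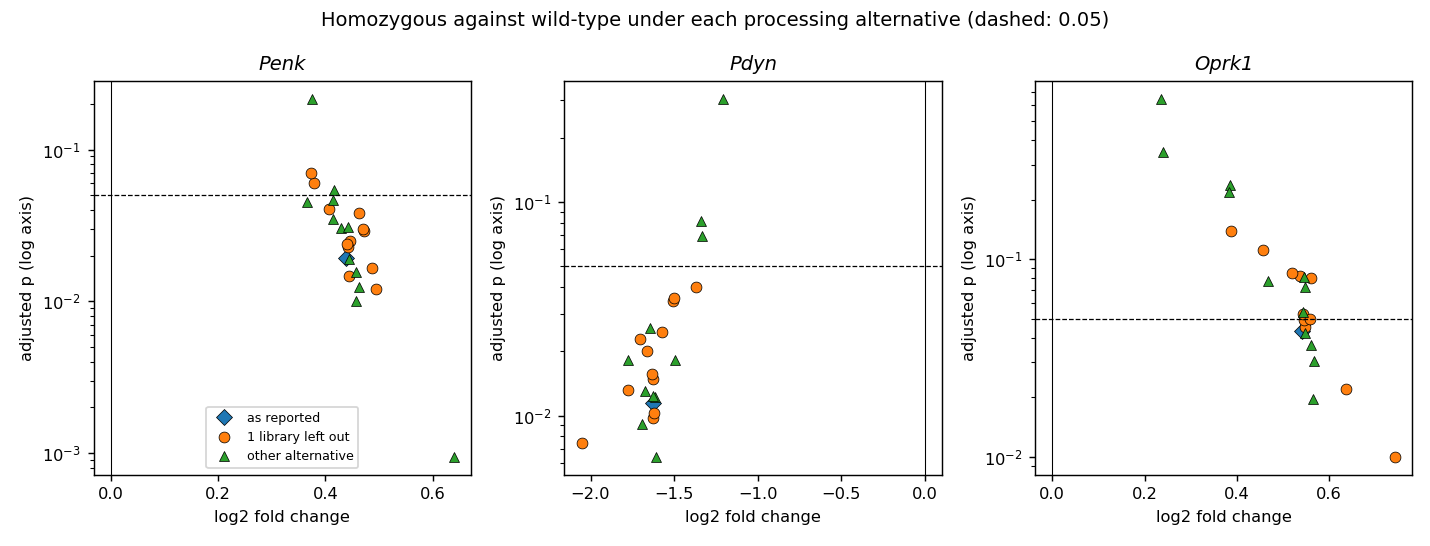
Log2 fold change (horizontal axis) and adjusted p (vertical log axis) of Penk, Pdyn and Oprk1 in homozygous against wild-type tissue, as reported, with 1 library left out and under the other alternatives; the dashed line is 0.05. The direction held at every point shown. The fit as reported lies below the line for each gene, and of the alternatives 20 of 24 for Penk, 20 of 23 for Pdyn and 10 of 24 for Oprk1 do.

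Levels were compared between genes per kilobase of annotated exon. In wild-type tissue Penk led at 84.1 ± 7.97 CPM per kilobase, followed by Oprl1 at 18.6 ± 1.01 and Pnoc at 10.1 ± 0.635. Oprm1 at 5.46 ± 0.83 and Oprk1 at 5.25 ± 1.71 came next and overlapped, as did Pdyn at 3.37 ± 0.944 and Oprd1 at 2.97 ± 0.833 CPM per kilobase (SD, n = 4 each). In heterozygous tissue Oprk1 and Oprm1 again overlapped, at 5.23 and 5.15 CPM per kilobase, and each Pdyn library, at no more than 1.59, lay below each Oprd1 library, at no less than 1.64. In homozygous tissue Oprk1 at 7.80 ± 1.31 stood between Oprl1 at 14.8 ± 2.15 and Pnoc at 6.59 ± 2.45 CPM per kilobase, overlapping Pnoc, and Pdyn at 0.986 ± 0.533 was below Oprd1 at 3.59 ± 0.419 in every library. Exon lengths ran from 1634 bases for Penk to 9151 bases for Oprk1, and isoforms were not counted apart.

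**Figure D5:**
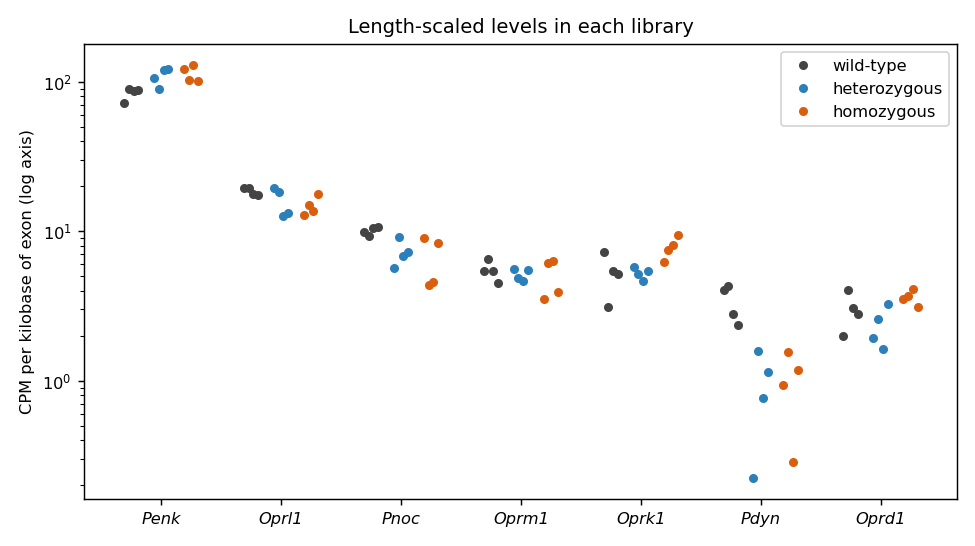
CPM per kilobase of exon (vertical log axis) of the 7 genes, ordered by their wild-type mean, with 1 point per library, by genotype. Penk lies above 70 in each library and Oprl1 between 12 and 20, and Pdyn is the one gene whose mutant points fall below 2 throughout.

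Among the receptors, the share of Oprk1 in their summed CPM per kilobase was 9.40% to 21.4% in wild-type, 16.7% to 19.7% in heterozygous and 23.2% to 27.5% in homozygous libraries. The share of Oprl1 was 56.2% to 58.8%, 48.5% to 59.5% and 42.3% to 52.0% in the same order. Homozygous libraries lay outside the wild-type range in both shares. For single genes, 23.6% of tested genes did not overlap in this contrast, and no such background was computed for shares or ratios. These shares, and the count ratio that follows, restate the receptor levels above and are not separate evidence. The ratio of Oprl1 to Oprk1 counts was 1.09 to 2.57 in wild-type, 1.01 to 1.45 in heterozygous and 0.689 to 0.847 in homozygous libraries, so Oprl1 was counted more often than Oprk1 in every wild-type and heterozygous library and less often in every homozygous one.

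Other genes of the opioid system were taken from lists, and their counts refer to homozygous against wild-type tissue, where the median log2 fold change over all tested genes was -0.03. There, 25.4% of all tested genes were called, 13.7% higher and 11.6% lower. These shares stand beside each list count below, and whether a list departed from them was not tested. Among other opioid system genes, Ogfrl1, named for its likeness to the opioid growth factor receptor, rose from 294 ± 20.5 to 696 ± 168 CPM (log2 fold change 1.24, adjusted p = 8e-06), with 402 ± 65.0 CPM in heterozygous tissue. Pomc, the precursor of beta-endorphin and melanocortins in arcuate neurons, fell by 1.12 on the log2 scale (adjusted p = 0.0367), from 15.9 ± 5.49 to 6.86 ± 4.50 CPM. Kcnip3, the calcium-binding repressor of Pdyn known as DREAM, had a log2 fold change of -0.22 (adjusted p = 0.457). Without homozygous replicates 4 and 5, the call of Ogfrl1 held (0.93), and that of Pomc ended (-0.76, adjusted p = 0.189). The log2 fold change of Pomc was -0.41 with the GC slope as a covariate (adjusted p = 0.705) and -0.71 with a GC offset (adjusted p = 0.167), and that of Ogfrl1 was 0.70 (adjusted p = 0.00157) and 0.91 (adjusted p = 2.32e-06). The Pomc call also ended in 5 of the 12 fits without 1 library (wild-type replicate 3 or 5, or homozygous replicate 2, 4 or 5), with adjusted p from 0.0562 to 0.153.

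Of 12 genes of prohormone cleavage and packaging, all tested, 3 rose and 3 fell, with a list median of 0.06. The granule proteins Chgb (658 ± 188 to 1432 ± 95.6 CPM, log2 fold change 1.12, adjusted p = 2.43e-05) and Scg2 (0.65, adjusted p = 0.000481) rose. The granule protein Chga (-0.66, adjusted p = 0.00985) and Pam, which amidates peptides (-0.41, adjusted p = 0.00892), fell. Of these 6 calls, those of Chgb and Scg2 held without homozygous replicates 4 and 5 and with the GC slope as a covariate. Of 10 tested peptidases that break down opioid peptides, 1 rose and 3 fell, with a list median of -0.31. Mme, the enkephalin-cleaving enzyme neprilysin, rose from 24.9 ± 3.23 to 51.2 ± 8.91 CPM (1.06, adjusted p = 0.000427). The endothelin-converting enzymes Ece2 (-0.56, adjusted p = 0.015) and Ece1 (-0.49, adjusted p = 0.0206) and the aminopeptidase Npepps (-0.40, adjusted p = 0.0233) fell. The calls of Mme and Npepps held without homozygous replicates 4 and 5, and that of Mme alone with the GC slope as a covariate. In fits without 1 library, the Npepps call ended in 4 of 12 (wild-type replicate 1, 2 or 3, or homozygous replicate 5; adjusted p from 0.0502 to 0.09), the Ece1 call without wild-type replicate 3 or homozygous replicate 5 (adjusted p from 0.0698 to 0.0939) and the Ece2 call without homozygous replicate 5 (adjusted p = 0.0508).

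Of 18 genes of inhibitory G protein signalling, all tested, 3 rose and 4 fell, with a list median of 0.07. Over all tested genes, 13.7% were called higher and 11.6% lower. Among the G protein alpha subunits, Gnai1 rose (477 ± 59.9 to 1160 ± 156 CPM, log2 fold change 1.28, adjusted p = 1.48e-06) and Gnai2 fell (230 ± 27.4 to 107 ± 43.5 CPM, -1.06, adjusted p = 0.000445). Adcy5, an adenylyl cyclase that opioid receptors inhibit, rose by 0.83 (adjusted p = 0.00153), and Cacna1b, the pore of the N-type calcium channel, changed by -0.85 (adjusted p = 0.00245). Of the 7 calls, 6 held without homozygous replicates 4 and 5 and 1, Gnai1, with the GC slope as a covariate. Gnai1 was also higher in heterozygous than in wild-type tissue (0.75, adjusted p = 0.00991), as was Chgb (0.74, adjusted p = 0.0228), the only other gene of these lists called there. Between homozygous and heterozygous tissue, Ogfrl1 (0.79, adjusted p = 0.00964) and Gnai1 (0.53, adjusted p = 0.0374) were called.

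Of 14 tested genes of receptor desensitisation and trafficking, 2 rose and 1 fell, with a list median of -0.06. Rgs20, which speeds the shut-off of inhibitory G proteins (1.20, adjusted p = 0.000149), and Gprasp1, which sorts the delta receptor for degradation (0.48, adjusted p = 0.00308), rose. The receptor kinase Adrbk1 fell (-0.79, adjusted p = 0.00342), and its call ended without homozygous replicates 4 and 5 (-0.49, adjusted p = 0.062). With the GC slope as a covariate the call of Rgs20 held (0.78, adjusted p = 0.0432), and those of Gprasp1 (0.31, adjusted p = 0.187) and Adrbk1 (-0.25, adjusted p = 0.546) ended. Rgs17 had a log2 fold change of 0.34 (adjusted p = 0.0805). Of 10 tested transcription factors known to act on opioid precursor genes, 1 rose and 2 fell, with a list median of -0.02. Atf2 rose (0.56, adjusted p = 0.00427), and the activity-linked Fos (20.4 ± 4.74 to 9.01 ± 5.05 CPM, -1.08, adjusted p = 0.0117) and the glucocorticoid receptor Nr3c1 (-0.40, adjusted p = 0.0285) fell. Atf1 had a log2 fold change of 0.97 (adjusted p = 0.106). With the GC slope as a covariate, 0 of these 3 calls held. Without homozygous replicates 4 and 5 the call of Atf2 ended (0.29, adjusted p = 0.126). Without wild-type replicate 5 that of Fos ended (adjusted p = 0.0578), and that of Nr3c1 ended in 6 of the 12 fits without 1 library (wild-type replicate 1, 2 or 3, or homozygous replicate 1, 2 or 5), with adjusted p from 0.0505 to 0.0962.

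Of 8 tested partner peptides and receptors of dynorphin-making kisspeptin and magnocellular neurons, 0 passed the edgeR test, with a list median of -0.37. The vasopressin precursor Avp had a log2 fold change of -1.18 (adjusted p = 0.0705) with widely spread wild-type libraries (31.1 ± 24.0 CPM, SD, n = 4). Galanin (Gal, -0.63, adjusted p = 0.0966), the estrogen receptor Esr1 (-0.68, adjusted p = 0.111) and the oxytocin precursor Oxt (-0.48, adjusted p = 0.239) also had negative values. Before adjustment, p was under 0.05 for 3 of the 8 (Avp, Gal and Esr1), and limma and DESeq2 each called 0.

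Markers of the hypothalamus and of its neighbours were read beside these results, with homozygous replicates 4 and 5 included throughout. In this contrast 25.4% of all tested genes were called, 13.7% higher and 11.6% lower. Of 13 tested hypothalamus markers, 3 fell in homozygous against wild-type tissue (Pomc, Trh and Hdc), and the list median was -0.41. Positive but not called were Fezf1 (0.57), Sim1 (0.43), Pmch (0.22) and Npy (0.03). Negative but not called were Ghrh (-0.25), Cartpt (-0.41), Hcrt (-0.41), Oxt (-0.48), Nr5a1 (-0.99) and Avp (-1.18). Adjusted p of these uncalled markers ran from 0.0705 to 0.92. Of 8 tested thalamus and habenula markers, 3 rose (Ntng1, Rora and Slc17a6), with a list median of 0.42. The other tested ones were not called: Chrnb3 (1.05), Tcf7l2 (0.30), Prkcd (0.25), Plekhg1 (-0.02) and Lef1 (-0.05), with adjusted p from 0.237 to 0.964. The summed level of the list was 565 to 802 CPM in wild-type, 701 to 959 CPM in heterozygous and 721 to 1131 CPM in homozygous libraries. Slc17a6 was its largest part, with a mean of 435 CPM over all libraries. Whether Slc17a6 marked thalamus rather than hypothalamus was not tested. Of 9 tested markers of striatum, where Penk and Pdyn are abundant, 1 fell (Rarb), and the summed level was 259 to 313, 274 to 315 and 265 to 353 CPM in the same order, with Adora2a at 0 in each homozygous library. Of 5 tested cortex and hippocampus markers 0 passed the edgeR, DESeq2 or limma test (2 at an unadjusted p under 0.05 by edgeR), and the summed level was 109 to 141, 122 to 183 and 119 to 159 CPM, with Emx1 at 0 in each wild-type and each homozygous library. The pituitary markers Prl, Gh and Pou1f1 were at 0 in each of the 12 libraries. Whether these marker differences came from dissection, and what part they had in the opioid results, was not tested.

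For each of the 7 genes, the tested genes whose log2 CPM ran most closely with it over the 12 libraries were listed from 9985 candidates, as a description, since the libraries share genotype, depth and base composition. For Penk these were Scaper (Pearson's r 0.913, Spearman's rho 0.909), Baz1b and Gnl2. For Pdyn they were Cmtm6 (r 0.930, rho 0.909), Mir5114, counted here only by its symbol, and Dr1. For Pnoc they were Dph1 (r 0.903, rho 0.916), Rpn2 and Idh3a. For Oprk1 they were Ugcg (r 0.913, rho 0.902), Ube2v2 and Ttc9c, and for Oprm1 Gnptg (r 0.880, rho 0.769), Epn2 and Tmem18. For Oprd1 they were Inhba (r 0.900, rho 0.930), Zbtb40 and Prelp, and for Oprl1 Pdgfrb (r 0.908, rho 0.846), Prdx3 and Pxk. None of the 7 opioid genes was among the closest genes of another.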

How the data were processed

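The values are raw counts per gene symbol in 1 table deposited by the authors. Reads were mapped to mm10, per the submitters' processing notes, and the sources used here name no aligner or counter. The table held 12 columns, grouped by genotype prefix and matched to the labels by title, except homozygous replicate 5, whose number no homozygous title carries. Depth was 979394 to 2330872 counts per library, which limits Pdyn and Oprd1 most. Genes passed edgeR's filterByExpr (minimum count 10), leaving 10737 of 24020. Counts were scaled by TMM and tested in edgeR 4.0.16 (R 4.3.3) with a quasi-likelihood model over 12 libraries, adjusted by the Benjamini-Hochberg method and called at 0.05. The 95% intervals of log2 differences were built from the standard error with normal quantiles, so they are narrower than the test itself implies. Alternatives used limma 3.58.1 and DESeq2 1.42.0. The scripts were tested on simulated data. Symbols were matched to GENCODE M21 for position, exon length and GC content, 20717 directly and 1918 by an older symbol. Named genes were the 7 opioid genes, up to 4 tested genes with the smallest p per list, and the 3 closest genes by correlation (mean of at least 5 CPM); further list genes named with a count or with markers were chosen after their values were seen. The 7 genes, the lists and the tests were chosen with earlier results of these data known. The labels call the samples individuals and give no litter or batch. For the list of other opioid system genes, 1 gene is not reported here, and no count over that list is given. Libraries were not paired by replicate number in the main fit, and the labels do not say whether the numbers mark pairs.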

Additional observations from a re-analysis of the deposited data

Results flagged for a closer look

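In the 4 wild-type libraries, Penk was at 118 CPM (161 counts) in replicate 1 and between 142 and 146 CPM in the other 3. The gap of replicate 1 to its nearest neighbour was 0.874 of the whole range, above Dixon's 95% critical value for 4 samples. Of the 21 groups of 4 libraries looked at (7 genes in 3 genotypes), this was the 1 group past the value, and chance gives about 1 in 20. Without this library the homozygous difference in Penk was 0.38 on the log2 scale (adjusted p = 0.0603, edgeR) in place of 0.44.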

How the results depend on the processing

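Opioid genes called in homozygous against wild-type tissue numbered 3, and 0 with the GC slope as a covariate, 1 with only the 2 genotypes compared, 0 without homozygous replicates 4 and 5, 1 when heterozygous replicate 2 was left out with them (an alternative chosen after seeing the data), and 1 to 4 with 1 library left out. In heterozygous against wild-type tissue the number was 0, and 1 with limma, with no filter, with a GC offset, with 2 genotypes and without homozygous replicates 4 and 5, 2 without the 3 libraries, and 0 to 1 with 1 left out; between the mutant genotypes it was 0, and 0 to 1 with 1 left out. The step per copy called 3, and 0 with the GC slope and 1 to 4 with 1 left out. Among all genes, homozygous against wild-type called 2723 (1475 higher, 1248 lower; upper quartile scaling gave 1238 higher and 1575 lower), and 461 with the GC slope, 1344 without homozygous replicates 4 and 5, 1534 without the 3 libraries, and 1856 to 3076 with 1 left out. Heterozygous against wild-type called 64, and 228 with DESeq2, 394 with limma, 280 with no filter, 261 with the GC slope, 157 with a GC offset, 382 with 2 genotypes, 430 without homozygous replicates 4 and 5, 978 without the 3 libraries, and 3 to 218 with 1 left out. Homozygous against heterozygous called 236, and 460, 78, 727, 1, 257, 44, 1 and 2 in that order, and 6 to 867 with 1 left out. The step per copy called 2757, and 554 with the GC slope, 1582 without homozygous replicates 4 and 5, 1678 without the 3 libraries, and 1936 to 2942 with 1 left out.

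With the replicate number as a block, homozygous against heterozygous called 15, heterozygous against wild-type 93, and the homozygous call for Oprk1 ended (0.54, adjusted p = 0.081). Of 9 same-numbered pairs, 1 had a correlation of deviations over 0.1 (from -0.27 to 0.34), and 4 of 12 libraries ran closest with their own number.

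Of the log2 differences of single opioid genes under the alternatives, 582 kept their sign and their side of the threshold, 41 lost a call, 15 gained one and 19 turned sign. The sign turned for Oprk1 in heterozygous against wild-type tissue with limma (0.041), no filter (0.0014) and the block (0.029), and for Penk between the mutant genotypes without the 3 libraries (-0.053). With 1 library left out, log2 differences crossed 0 for Oprm1 in homozygous (-0.23 to 0.052) and heterozygous (-0.16 to 0.022) against wild-type tissue, between the mutants (-0.16 to 0.12) and per copy (-0.11 to 0.021), for Oprk1 in heterozygous tissue (-0.18 to 0.18), and between the mutants for Pdyn (-0.35 to 0.56), Penk (-0.025 to 0.12) and Pnoc (-0.43 to 0.0015). None of these passed the edgeR test. Pdyn had no value in the homozygous fits limited to 2 genotypes, where the filter removed it. The causes of these differences were not tested. Depth limits Pdyn most, at 18 to 51 counts per genotype.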
